A study of Mus musculus with 12 samples.

Results

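The 9 genes described here, Chd8, Chd2, Arid1b, Kmt2c, Ash1l, Setd5, Adnp, Pogz and Dyrk1a, are the mouse counterparts of genes in which damaging variants have been linked to autism and intellectual disability. Most of them encode proteins that read, write or rearrange chromatin, and Dyrk1a, a protein kinase, is usually grouped with them in genetic studies. They were matched by Ensembl gene identifier in the table of every mouse and are 9 of the 24590 genes listed in the series. All 9 were listed in all 12 libraries and passed the filter on low values, a mean of 1 over all mice, that left 14322 genes to test. Adnp, under 1 in both groups of one line, passed it only through the other line.

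RNA was sequenced from the hippocampi of 12 mice, of which 6 were knockouts with deletions in Shank2 and 6 were wild-type littermates. Shank2 encodes a scaffold protein of the postsynaptic density of excitatory synapses. Exons 6 and 7 are missing from knockouts of the exon 6-7 line, and exon 7 alone from knockouts of the exon 7 line. Each line was represented by 3 wild-type and 3 knockout mice, males of mixed C57BL/6J and C57BL/6N strain in all 4 groups. The age of 8 to 15 weeks in the labels is given for the behavioural work, and no separate age is given for the RNA. Values are FPKM, fragment counts divided by transcript length and library size, rescaled so that the typical gene has the same level in every library (scaled FPKM). Differences were taken of log2(scaled FPKM + 1), a scale that shrinks the change of low genes. In each library the whole hippocampus was measured, so that fewer cells of a type and less RNA per cell cannot be told apart. The labels do not say which mice were processed together or whether knockouts were paired with littermates, and the p-values rest on the variation from mouse to mouse together with that of their libraries.

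Chromatin packs DNA around histones, and its regulators set which stretches are open to transcription. CHD8, CHD2 and the BAF complex, to which ARID1B belongs, use ATP to slide or remove nucleosomes. KMT2C methylates histone H3 at lysine 4 at enhancers and ASH1L methylates lysine 36, marks that accompany active genes, while SETD5 carries a SET domain and works with an HDAC3 corepressor. ADNP and POGZ bind HP1 proteins, which occupy silent chromatin, and ADNP also forms a complex with the remodeller CHD4. In neurons these proteins are best known for their roles during development, and their transcripts persist in the adult hippocampus.

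The members have long transcripts, which bears on every value below. By GENCODE M21 on mm10, the longest annotated transcript ran from 4932 bases for Adnp to 14967 bases for Kmt2c, against a median of 3278 bases over the genes tested. Chd8 (ENSMUSG00000053754) lies at chr14:52198151-52257780, minus strand. Chd2 (ENSMUSG00000078671) lies at chr7:73426638-73541830, minus strand, and Arid1b (ENSMUSG00000069729) at chr17:4994332-5347656, plus strand. Kmt2c (ENSMUSG00000038056) lies at chr5:25271798-25498783, minus strand. Ash1l (ENSMUSG00000028053) lies at chr3:88950622-89079375 and Pogz (ENSMUSG00000038902) at chr3:94837567-94882326, both on the plus strand. Setd5 (ENSMUSG00000034269) lies at chr6:113077365-113153435, plus strand, and Dyrk1a (ENSMUSG00000022897) at chr16:94570010-94695517, plus strand. Adnp (ENSMUSG00000051149) lies at chr2:168180986-168207112, minus strand. Of the 9 gene spans, 6 overlap another annotated gene model, and the values below are for whole genes with all transcripts together.

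Promoter windows of the 250 bases before a transcription start were taken from RefSeq (GRCm38.p6). They matched 7 of the 9 members, in 9 windows, as Dyrk1a had several. Shown are 3: Adnp, which differed most between the lines, Chd8, which differed least, and Kmt2c, whose window held the most CpG pairs among the members. Capitals mark GGGCGG or its reverse complement CCGCCC, the core of the GC box that Sp factors bind.
Adnp: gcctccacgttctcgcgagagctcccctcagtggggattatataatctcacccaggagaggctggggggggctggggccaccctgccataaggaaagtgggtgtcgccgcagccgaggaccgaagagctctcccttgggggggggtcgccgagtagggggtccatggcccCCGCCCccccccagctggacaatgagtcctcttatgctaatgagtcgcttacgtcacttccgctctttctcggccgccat
Chd8: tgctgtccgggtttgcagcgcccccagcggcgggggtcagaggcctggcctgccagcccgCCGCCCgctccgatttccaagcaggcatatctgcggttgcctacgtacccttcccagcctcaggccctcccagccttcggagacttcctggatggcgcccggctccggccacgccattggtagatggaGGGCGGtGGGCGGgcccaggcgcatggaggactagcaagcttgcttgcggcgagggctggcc
Kmt2c: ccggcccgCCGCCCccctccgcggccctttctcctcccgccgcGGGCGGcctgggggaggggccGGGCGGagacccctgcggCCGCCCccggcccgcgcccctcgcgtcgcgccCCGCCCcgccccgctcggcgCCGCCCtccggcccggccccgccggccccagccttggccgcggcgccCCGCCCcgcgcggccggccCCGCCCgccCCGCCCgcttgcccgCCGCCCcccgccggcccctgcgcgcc
These windows span chr2:168207113-168207362, chr14:52257761-52258010 and chr5:25498784-25499033, each printed 5′ to 3′ on the minus strand. The Adnp window held 15 CpG pairs, the Chd8 window 20 and the Kmt2c window 48, against a median of 6 over 32851 windows. GGGCGG on either strand occurred once in the Adnp window, 3 times in the Chd8 window and 10 times in the Kmt2c window. It was found in 6 of the 7 matched members and in 32.7% of all windows of the same length. CCAAT on either strand was found in 3 of the 7 and in 33.8% of all windows. A member was counted if any of its windows matched, whereas the shares of all windows are per window. Dyrk1a counts for CCAAT only through its window at chr16:94611169-94611418. TATAAA on either strand was in none of the 7 and in 12.4% of all windows. The motifs do not overlap each other in their letters, and a match says nothing of binding. The Setd5 window lies inside the annotated gene span and held 0 CpG pairs. The Arid1b window and the Dyrk1a windows that start at chr16:94570657 and chr16:94611169 also lie inside their gene spans. The Chd8 window and the remaining Dyrk1a window reach into theirs.

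Shank2, the deleted gene, was checked first. In the exon 6-7 line it was at 13.8 to 14.9 scaled FPKM in wild types and 6.15 to 7.02 in knockouts, a fall of 1.04 on the log2 scale (SE 0.119, limma with Benjamini-Hochberg adjustment, adjusted p = 0.00972). Exon 7 mice had it at 36.04 to 44.1 in wild types and 33.2 to 44.6 in knockouts, and a value for the whole gene need not show the loss of 1 exon. In 4 libraries, 1 in each group (wild-type mice WT778 and WT628, knockout mice KO776 and KO969), the gene model ENSMUSG00000095746 was not listed, while the other 8 had 218 to 435 FPKM of it. These 4 libraries are called set A and the other 8 set B. What parts the sets is not labelled. Summed markers of hippocampal neurons were at 2096 to 2923 scaled FPKM in all 12 mice, and no marker of the 10 cell type and tissue lists was at 0 in any mouse. Choroid plexus markers summed to 42.0 in wild-type mouse WT865, where Ttr, the transthyretin gene, was at 35.6, against 1418 to 2282 in exon 7 mice and up to 8613 in the rest of the exon 6-7 line. Read totals are not kept in FPKM, so the depth is unknown and no counting error can be given.

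The nucleosome remodellers come first. Chd8 encodes a helicase that binds promoters of active genes. In the exon 6-7 line the wild types WT778, WT809 and WT865 had 14.1, 16.1 and 15.8 scaled FPKM, and the knockouts KO776, KO777 and KO864 had 16.2, 18.01 and 14.1. In the exon 7 line the wild types WT628, WT993 and WT999 had 29.0, 28.2 and 27.7, and the knockouts KO969, KO990 and KO994 had 29.7, 26.8 and 26.3. The genotypes overlapped in both lines, and every exon 7 mouse lay above every exon 6-7 mouse. The same order of mice is kept for the genes that follow.

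Chd2, a related remodeller that deposits the histone variant H3.3, was lower. It was at 4.50, 4.61 and 5.49 scaled FPKM in exon 6-7 wild types and at 4.89, 5.03 and 4.57 in exon 6-7 knockouts. Exon 7 wild types had 14.995, 16.7 and 20.2 and exon 7 knockouts 12.4, 18.7 and 15.3. The lines did not overlap, and the lowest mouse of both exon 7 groups was the set A library, as for 29.7% of all genes tested.

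Arid1b, a DNA-binding subunit of the BAF complex, was at 5.56, 5.64 and 7.21 scaled FPKM in exon 6-7 wild types and at 6.20, 6.71 and 7.17 in exon 6-7 knockouts. It was at 15.7, 20.2 and 20.2 in exon 7 wild types and at 15.6, 20.2 and 19.9 in exon 7 knockouts. In each of the 4 groups the lowest mouse was the one in set A, which was so for 11.4% of all genes tested. In the exon 7 line the set A mice lay well below the other mice of their group, whose values were close together.

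Of the histone methyltransferase genes, Kmt2c was at 7.78, 7.03 and 6.89 scaled FPKM in exon 6-7 wild types and at 8.46, 8.39 and 6.07 in exon 6-7 knockouts. It was at 24.5, 23.4 and 24.5 in exon 7 wild types and at 23.5, 23.0 and 23.4 in exon 7 knockouts. The exon 7 knockouts, at 23.3 ± 0.255 (SD, n = 3), had the smallest SD relative to the mean of any group of any member.

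Ash1l was at 5.70, 4.67 and 5.49 scaled FPKM in exon 6-7 wild types and at 6.57, 5.95 and 5.64 in exon 6-7 knockouts. It was at 25.4, 23.1 and 24.2 in exon 7 wild types and at 25.1, 23.1 and 21.4 in exon 7 knockouts. The set A mouse was the highest of its group in all 4 groups for both Kmt2c and Ash1l, as it was for 13.3% of all genes tested. At its start Ash1l overlaps Dap3, a mitochondrial ribosome gene on the opposite strand, which ran the other way between the lines, at a mean of 83.6 scaled FPKM in exon 6-7 wild types and 34.3 in exon 7 wild types. The small nuclear RNA model Gm26465 lies within Ash1l, also on the opposite strand. Its mean was 0 scaled FPKM in wild types of either line, 213 in exon 6-7 knockouts and 1047 in exon 7 knockouts. Its part in the Ash1l values was not tested. The sources used here do not say whether the authors counted by strand.

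Setd5 varied little between the mice of a group. It was at 13.5, 14.2 and 14.2 scaled FPKM in exon 6-7 wild types and at 14.8, 15.3 and 14.5 in exon 6-7 knockouts. Values of 38.6, 39.6 and 37.7 were found in exon 7 wild types and of 37.9, 38.7 and 37.0 in exon 7 knockouts. Its SD was at most 2.84% of the mean in any group.

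Of the genes of the HP1-binding proteins, Pogz was at 8.92, 9.24 and 10.03 scaled FPKM in exon 6-7 wild types and at 9.78, 10.4 and 8.88 in exon 6-7 knockouts. It was at 19.9, 20.7 and 23.8 in exon 7 wild types and at 19.9, 21.6 and 17.4 in exon 7 knockouts. The genotypes overlapped in both lines.

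Adnp, which encodes a zinc-finger and homeobox protein, stood apart from the other members. It was at 1.01, 0.667 and 0.686 scaled FPKM in exon 6-7 wild types and at 1.36, 0.154 and 0.963 in exon 6-7 knockouts. The exon 7 mice had 17.3, 16.9 and 19.5 as wild types and 13.6, 14.3 and 18.7 as knockouts. It was thus near the bottom of the genes tested in one line, above 2.57% of them in wild types, and in the middle range in the other, above 63.1% of them.

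Dyrk1a encodes a dosage-sensitive kinase, and its human counterpart lies in the Down syndrome region. It was at 9.79, 8.81 and 9.33 scaled FPKM in exon 6-7 wild types and at 11.7, 10.49 and 10.54 in exon 6-7 knockouts. It reached 25.3, 28.2 and 30.7 in exon 7 wild types and 26.3, 27.7 and 28.0 in exon 7 knockouts. Every knockout lay above every wild type in the exon 6-7 line, and the genotypes overlapped in the exon 7 line.

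**Figure D1:**
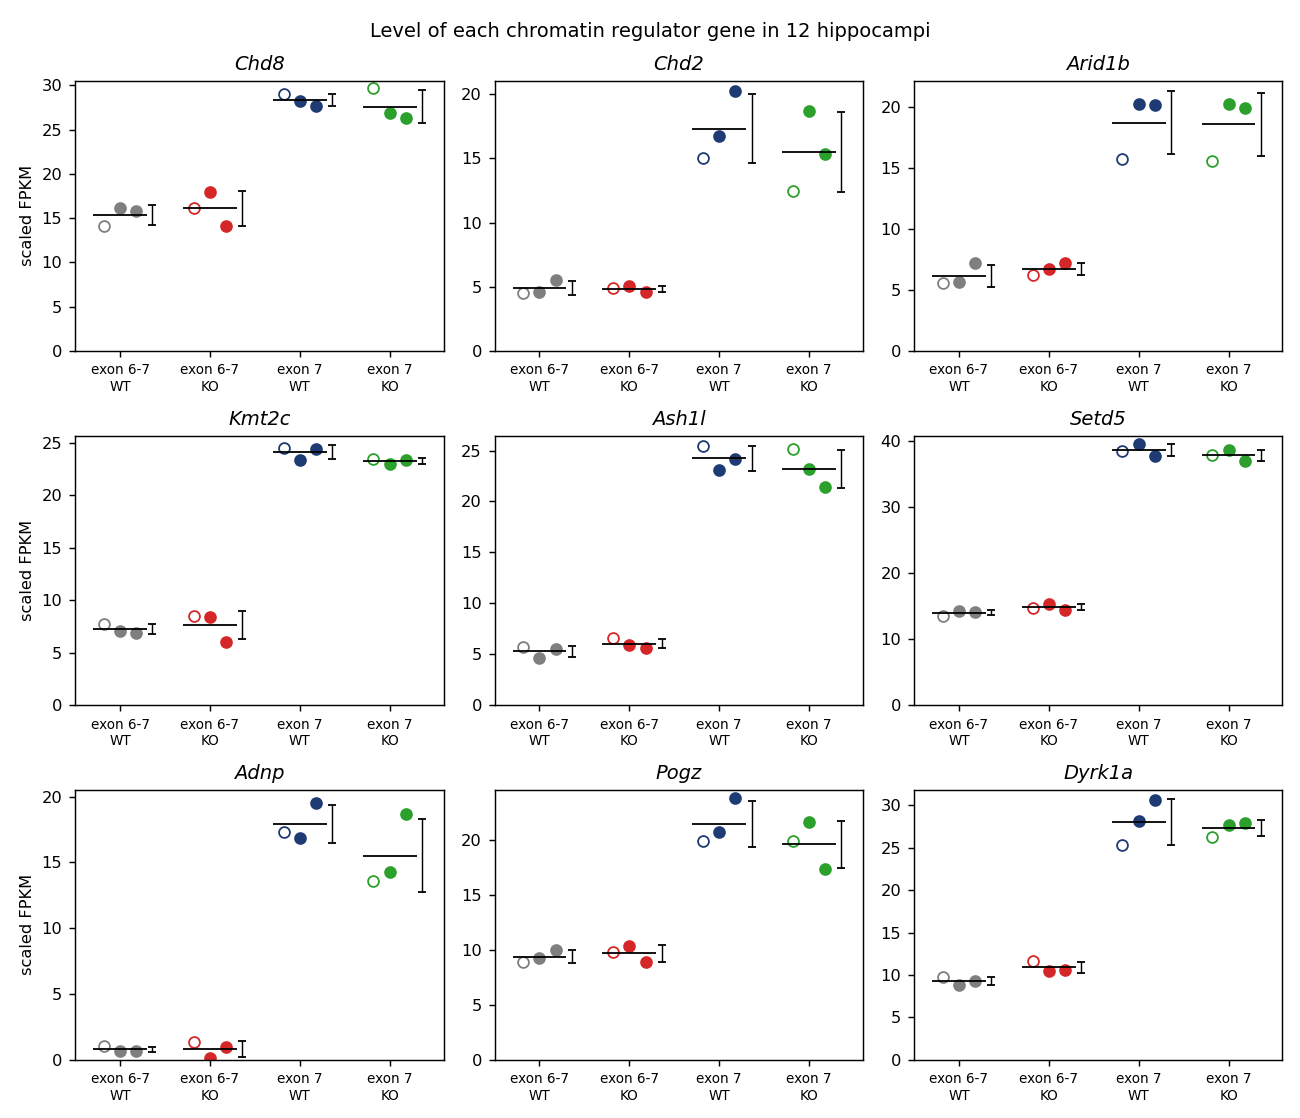
Level of each of the 9 genes in each mouse, in scaled FPKM on axes that start at 0, for the 4 groups of 3 mice. Points are mice, open points are set A libraries, horizontal bars are means and whiskers to the right are SDs; for every gene all 6 exon 7 mice lie above all 6 exon 6-7 mice, with Adnp at 0.154 to 1.36 in one line and 13.6 to 19.5 in the other.

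The order of the members by level differed between the lines. In exon 6-7 wild types it ran Chd8 (15.3 ± 1.10 scaled FPKM, SD, n = 3), Setd5 (13.99 ± 0.388), Pogz (9.40 ± 0.569), Dyrk1a (9.31 ± 0.491), Kmt2c (7.23 ± 0.479), Arid1b (6.14 ± 0.926), Ash1l (5.29 ± 0.545), Chd2 (4.87 ± 0.544) and Adnp (0.787 ± 0.192). The neighbours Chd8 and Setd5, Pogz and Dyrk1a, and each pair from Kmt2c to Chd2 overlapped over mice, while Setd5 lay clear of Pogz, Dyrk1a of Kmt2c and Chd2 of Adnp. In exon 7 wild types Setd5 came first (38.6 ± 0.926), clear of Chd8 (28.3 ± 0.660). From there down every neighbouring pair overlapped: Dyrk1a (28.0 ± 2.69), Ash1l (24.2 ± 1.19), Kmt2c (24.1 ± 0.664), Pogz (21.5 ± 2.07), Arid1b (18.7 ± 2.59), Adnp (17.9 ± 1.42) and Chd2 (17.3 ± 2.67). The 9 genes summed to 70.9 to 80.4 scaled FPKM in exon 6-7 mice and 204 to 228 in exon 7 mice.

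The comparison of knockouts with wild types of the same line asks whether loss of Shank2 exons goes with a change in these genes. In the exon 6-7 line 0 of 9 members passed the threshold of 0.05 in limma after adjustment over all genes, where 0.0209% of genes did, namely Shank2, Rps3a1 and Snord15b. At an unadjusted p under 0.05 there was 1 member, Dyrk1a, against 4.09% of genes. The median log2 difference of the members was 0.06, against 0.00 over all genes, and 7 of 9 were above 0, against 49.3% of genes. Their 500 neighbours in transcript length, the genes of like length, had medians of 0.04 to 0.07 in the same comparison, and 4 of the 9 members lay above that median. Summed oligodendrocyte markers moved with genotype here, at 5070 to 6382 scaled FPKM in wild types and 4463 to 4612 in knockouts, with Mbp, the myelin basic protein gene, at 2607 to 3337 and 2209 to 2425. Summed meningeal markers, at 8.49 to 10.96 in wild types and 13.9 to 17.3 in knockouts, did not overlap either. No gene of these lists passed the threshold, and their part in the members' values was not tested.

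Dyrk1a had the largest difference in the exon 6-7 line. Its mean was 9.31 ± 0.491 scaled FPKM in wild types and 10.9 ± 0.678 in knockouts (SD, n = 3), 17.2% higher. The log2 difference was 0.21 (SE 0.0874, 95% interval 0.02 to 0.40). In limma's fit over all genes p was 0.0363 before and 1 after adjustment. An exact permutation test gave p = 0.1, two-sided, the smallest that 3 mice against 3 allow. Among set A mice alone the difference was 0.23, and among set B mice 0.19. The groups did not overlap for 2 members, Dyrk1a and Setd5, both higher in knockouts, which was the case for 4.98% of all genes tested. Among the genes of like length of each member that share was 6.6 to 11.8%, with 9.2% for Dyrk1a and 6.6% for Setd5. For Setd5 the log2 difference was 0.08 (SE 0.0659, 95% interval -0.06 to 0.22).

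Ash1l had the next largest difference, 0.17 (95% interval -0.04 to 0.38), followed by Arid1b at 0.11 (-0.18 to 0.41). Without wild-type mouse WT809 Ash1l was at 0.095. Arid1b was at 0.057 without WT778 and at 0.22 without WT865. Chd8 and Kmt2c were both at 0.06, Pogz at 0.04, Chd2 at -0.01 and Adnp at -0.03. For Adnp the mean in scaled FPKM ran the other way, at 0.825 in knockouts and 0.787 in wild types. The Adnp interval was the widest, from -0.52 to 0.46, and leaving out knockout mouse KO777, where Adnp was at 0.154 scaled FPKM, moved its difference to 0.27. For the other 8 genes the intervals reach no further than 0.41 in size.

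For the exon 7 line again 0 of 9 members passed the threshold, and 0% of all genes did. At an unadjusted p under 0.05 there were 0 members, against 3.5% of genes. All 9 differences were below 0, as were 53.2% of all genes, and ran from -0.01 for Arid1b to -0.21 for Adnp, with a median of -0.05. The genes of like length were also below 0, with medians of -0.02 to -0.06, and 5 of the 9 members lay above those. After Adnp, the differences furthest from 0 were those of Chd2, at -0.16 (95% interval -0.48 to 0.15), and Pogz, at -0.12 (-0.35 to 0.10). Adnp did not pass the threshold, at -0.21 (-0.69 to 0.28), with means of 17.9 ± 1.42 and 15.5 ± 2.76 scaled FPKM. These values moved with single mice: Chd2 ran from -0.30 without KO990 to -0.022 without KO969, Pogz from -0.19 without KO990 to -0.043 without KO994, and Adnp from -0.34 without KO994 to -0.12 without KO969. Summed oligodendrocyte markers were at 4867 to 5126 scaled FPKM in wild types and 4470 to 4788 in knockouts, and their part in the members' values was not tested. No member had genotypes that did not overlap, whereas 3.25% of genes had all knockouts above and 3.74% all below the wild types.

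**Figure D2:**
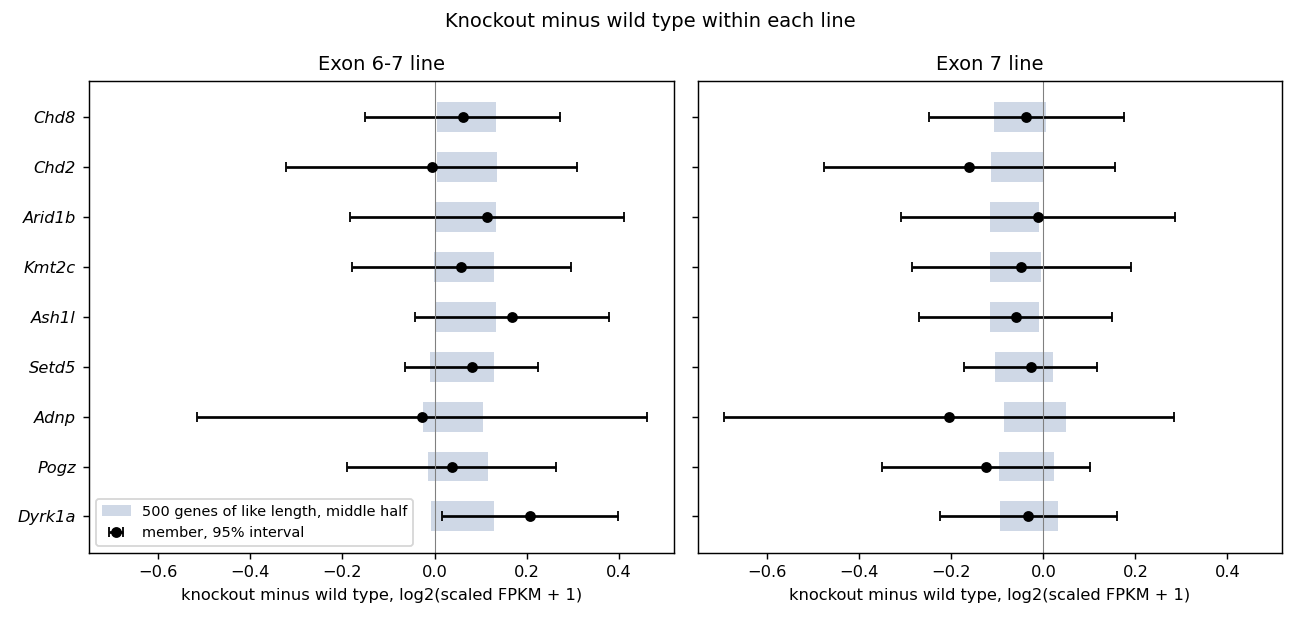
Knockout minus wild type in log2(scaled FPKM + 1) for the 9 genes, with exon 6-7 mice on the left and exon 7 mice on the right. Points are estimates with 95% intervals from limma and pale bars span the middle of the 500 genes of like length, from the lower to the upper quartile; every interval crosses 0 except that of Dyrk1a in the exon 6-7 line, 0.02 to 0.40.

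The difference of the knockout effects between the lines (exon 6-7 minus exon 7) was tested directly. It passed for 0 of 9 members in limma, and for 0.014% of genes, namely Rps3a1 and Snord15b. At an unadjusted p under 0.05 there were 0 members, against 3.99% of genes. The 9 estimates ran from 0.10 for Chd8 to 0.24 for Dyrk1a. All were above 0, as were 51.2% of genes, and the genes of like length had medians of 0.06 to 0.13. Leaving out 1 mouse at a time, Chd8 ran from 0.019 to 0.18, Chd2 from 0.016 to 0.29, Arid1b from 0.0098 to 0.24, Kmt2c from 0.035 to 0.24 and Pogz from 0.080 to 0.23. For Dyrk1a the 95% interval was -0.03 to 0.51 and for Adnp -0.51 to 0.87. Effects of these sizes were thus not shown to differ between the lines, nor to be alike.

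The lines themselves differed far more. Between the wild types, which carry no labelled deletion in either line, all 9 members were higher in the exon 7 line (limma, adjusted p of 1.28e-05 or less), where 33.7% of all genes were called higher and 66.4% were called in either direction. Of the 500 genes of like length, 60.0% (for Adnp) to 91.6% (for Ash1l) were also called higher. For Adnp the call is given as a description only. It passed the filter only through the exon 7 mice, which favours a higher value there. Between the knockouts, which share no library with the wild types, 9 of 9 were again higher, against 31.2% of genes called higher and 61.1% in either direction, and 56.6 to 89.8% of the genes of like length called higher. The groups of 3 did not overlap for any member in either comparison, where 35.4% of genes in wild types and 34.3% in knockouts lay wholly higher in the exon 7 line. Among genes of like length this held for 63.4 to 92.2% in wild types and 61.0 to 90.6% in knockouts. The exact permutation test gave its smallest p, 0.1, for each member. The lines share no library and the labels give no date or batch, so that line, breeding and processing cannot be told apart. Differences of this kind also moved with the share of mitochondrial transcripts, 6.22 to 7.39% in exon 6-7 mice and 10.3 to 14.3% in exon 7 mice. Summed astrocyte markers were at 518 to 622 scaled FPKM in exon 6-7 mice and 769 to 883 in exon 7 mice, and interneuron markers at 807 to 947 and 504 to 663. Markers of oligodendrocyte precursors summed to 8.48 to 10.96 and 17.8 to 21.4, and those of hippocampal neurons to 2096 to 2417 and 2519 to 2923. The genes of a list did not all move alike. Between wild types, 4 of 6 astrocyte markers were called higher in the exon 7 line and 2 lower. Of 6 interneuron markers 2 were higher and 4 lower, and of 11 hippocampal neuron markers 6 were higher and 3 lower. The part of any of these in the members' differences was not tested.

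Transcript length went with the line difference over the whole transcriptome. The median log2 difference between wild types was -0.74 for the 3524 genes with a longest transcript under 2 kb, 0.42 between 4 and 6 kb and 1.22 between 8 and 12 kb. Across 14163 genes the rank correlation of the difference with length was 0.66, a description of these libraries, since genes are not independent. Against genes of like length, 8 of the 9 members lay above the median and 5 above the upper quartile, in wild types and in knockouts. Adnp is in both counts, although it passed the filter only through the exon 7 mice. The others above the upper quartile were Chd2, Ash1l, Dyrk1a and Setd5, in both genotypes. The 9 members had a median difference of 1.49 in wild types, and the matching like-length medians had a median of 1.07.

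Among the remodellers, Chd8 was the one member below the median of its like-length genes, though between their quartiles, 0.73 and 1.46 in wild types. It was 1.85 times as high in exon 7 wild types, a log2 difference of 0.85 (SE 0.0965), where genes of its length had 1.07. Chd2 was 3.56 times as high, with a log2 difference of 1.64 against 1.16. Arid1b was 3.05 times as high, at 1.46 against 1.35, and also lay between the quartiles of its like-length genes.

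Among the methyltransferase genes, Ash1l was 4.58 times as high in exon 7 wild types. Its log2 difference of 2.01 (SE 0.0958, limma adjusted p = 5.55e-08) compared with 1.38 in genes of its length and was above 428 of those 500. Setd5 was 2.76 times as high, at 1.40 (SE 0.0659, limma adjusted p = 5.55e-08) against 0.85. Kmt2c was 3.33 times as high, at 1.61 against 1.35, between the quartiles of its like-length genes. As Setd5 differed more than Chd8, its level relative to that of Chd8 went from 0.850 to 1.03 in exon 6-7 mice to 1.28 to 1.44 in exon 7 mice.

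Dyrk1a was 3.01 times as high in exon 7 wild types, with a log2 difference of 1.49 against 0.72 in genes of its length, and was above 475 of those 500. Pogz was 2.29 times as high, at 1.11 against 0.81, between the quartiles of its like-length genes. In knockouts the differences were 1.25 for Dyrk1a, 0.95 for Pogz, 0.75 for Chd8 and 1.78 for Ash1l, and the like-length medians were smaller too. Taken over set A mice alone the wild-type differences ran from 0.99 to 3.19, and over set B mice from 0.77 to 3.51.

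**Figure D3:**
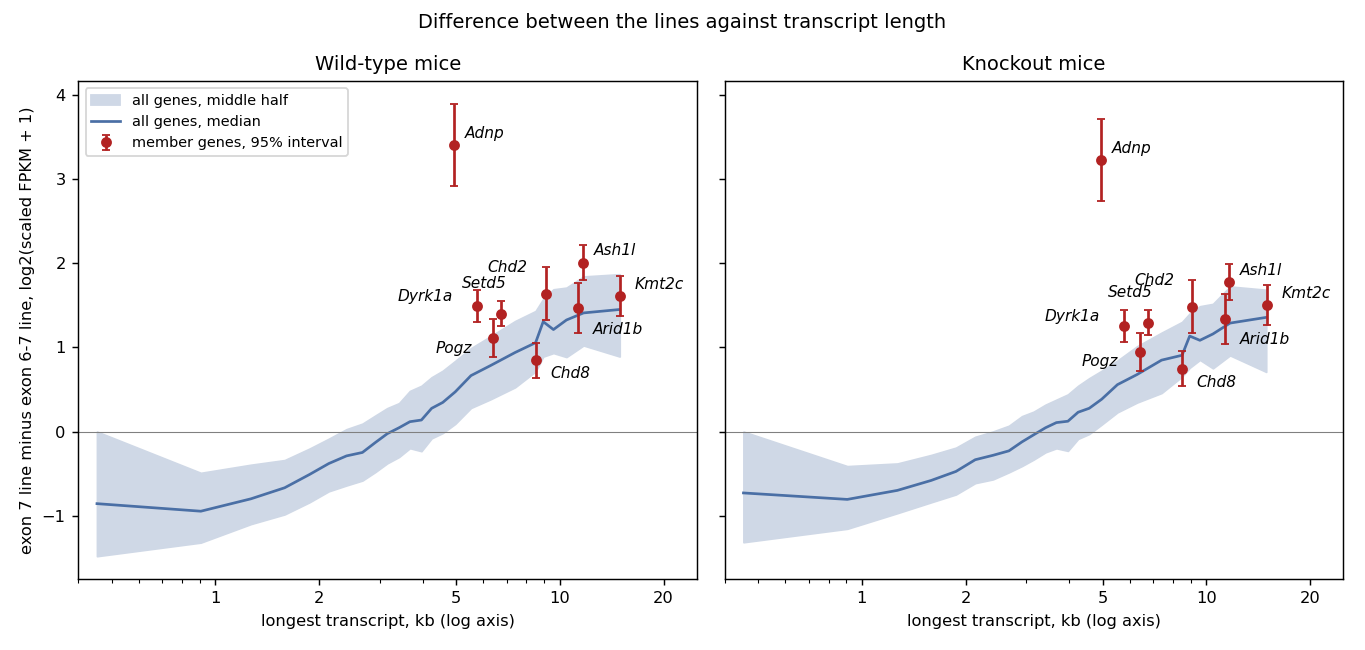
Exon 7 line minus exon 6-7 line in log2(scaled FPKM + 1) against the longest transcript in kb (log axis), for wild types on the left and knockouts on the right. The blue line and band are the median and the quartiles of all genes in bins of length. Red points are the 9 genes with 95% intervals. Adnp, at 3.41 and 3.23, lies far above genes of its length. Chd8, at 0.85 and 0.75, lies below the median of genes of its length but within the band.

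When trends of each library with transcript length and GC content were removed, 7 of the 9 members still passed in both line comparisons. Adnp is among the 7, but the filter favoured that direction here too, since Adnp passed it only through the exon 7 mice. Adnp kept a log2 difference of 2.90 in wild types, Dyrk1a 0.81, Setd5 0.59, Ash1l 0.55, Chd2 0.46, Arid1b 0.37 and Pogz 0.35. Kmt2c was then at 0.06 (limma adjusted p = 0.583). Chd8 turned to -0.21 (limma adjusted p = 0.0684), and to -0.19 in knockouts (limma adjusted p = 0.108). The direction for Chd8 between the lines thus depends on whether the trends are kept.

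Adnp had the largest line difference of the members. It was 22.8 times as high in exon 7 wild types as in exon 6-7 wild types, 17.9 ± 1.42 against 0.787 ± 0.192 scaled FPKM (SD, n = 3). The log2 difference was 3.41 (SE 0.223), and all 500 genes of like length, with a median of 0.46, lay below it. Both are given as a description, since Adnp was tested only because the exon 7 mice brought its mean above the filter. With no filter on low values the limma adjusted p was 1.3e-06. In knockouts the difference was 3.23, again above all 500.

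A gene model in the annotation bears on this value. Gm20716 (ENSMUSG00000093752, chr2:168180986-168230364, minus strand, annotated as protein coding) spans Adnp and its neighbour Dpm1, which encodes a mannosyltransferase subunit, on the same strand. Of the 50-base windows of Adnp's annotated transcripts 80.5% also occur in those of Gm20716, so that a fragment from most of Adnp could be given to either. Of the windows of Gm20716, 83.0% occur in Adnp and 16.1% in Dpm1. The sources used here do not say how the authors' software divided such fragments.

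Gm20716 was at 26.3, 26.8 and 25.9 scaled FPKM in exon 6-7 wild types and at 26.4, 29.3 and 28.6 in exon 6-7 knockouts. It was at 35.5, 31.2 and 35.01 in exon 7 wild types and at 38.5, 32.6 and 29.4 in exon 7 knockouts. Adnp made up 0.522 to 4.89% of the sum of the models in exon 6-7 mice and 26.1 to 38.9% in exon 7 mice. The lines thus differed in how the 2 models shared their sum as well as in its size.

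The sum of Adnp and Gm20716, an alternative chosen after the values were seen, was at 26.6 to 29.5 scaled FPKM in exon 6-7 mice and 46.8 to 54.6 in exon 7 mice. Its log2 difference between wild types was 0.91 (SE 0.0751, limma adjusted p = 1.11e-06), against 3.41 for Adnp alone. Genes of Adnp's length had a median of 0.46 and an upper quartile of 0.84. In knockouts the sum differed by 0.74 (limma adjusted p = 7.48e-06), beside a like-length upper quartile of 0.73. The sum did not pass in either knockout comparison, at 0.09 for exon 6-7 mice and -0.08 for exon 7 mice. Dpm1 was not called between the lines, with -0.41 (SE 0.319) in wild types.

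**Figure D4:**
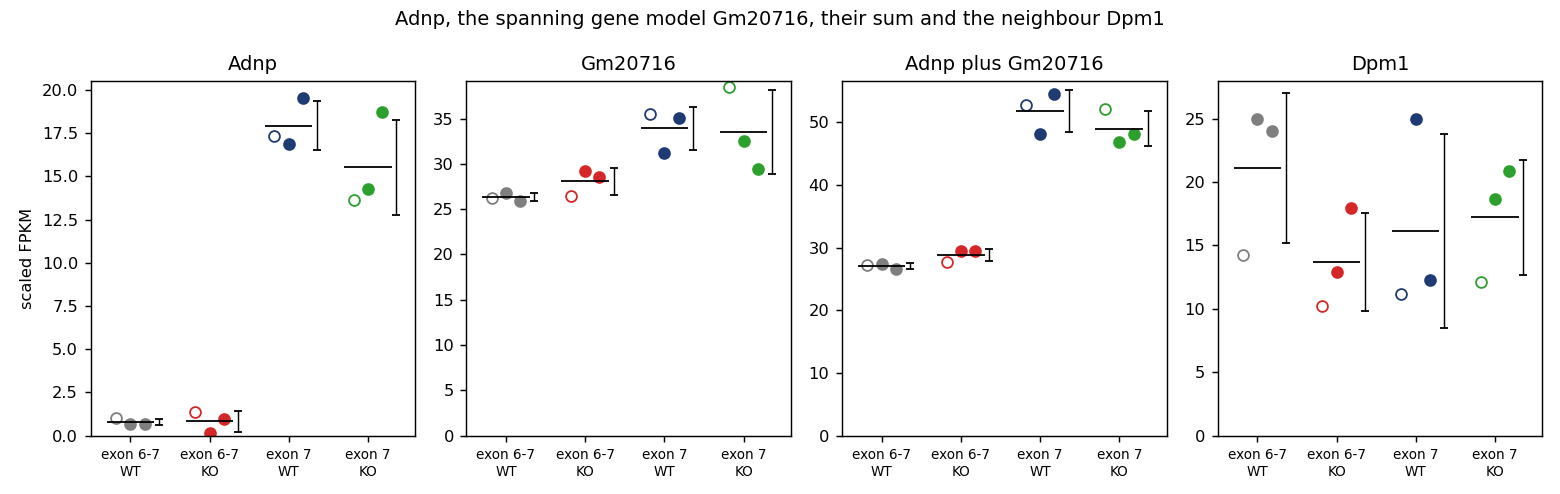
Adnp, Gm20716, their sum and Dpm1 in scaled FPKM in each mouse, on axes that start at 0. Open points are set A libraries, bars are means and whiskers SDs; Adnp alone is near 0 in all exon 6-7 mice, while the sum is 26.6 to 29.5 there and 46.8 to 54.6 in exon 7 mice.

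The other genes of these pathways were followed in 11 lists, with 167 tested genes beside the members. In the knockout comparisons 0 of 167 passed in limma in either line. At an unadjusted p under 0.05 there were 4 in each line, beside the 4.09% and 3.5% of all genes given above. In the exon 6-7 line these were Dyrk2 (0.43), Ep300 (0.24), Actb (-0.24) and Ezh2 (-0.24), and in the exon 7 line Rcan1 (-0.21), Pbrm1 (-0.22), Ezh2 (-0.23) and Jarid2 (-0.32). The median difference of the 167 was 0.04 for exon 6-7 mice and -0.03 for exon 7 mice. In the 7 lists with no such gene in the exon 6-7 line the smallest p belonged there to Chd9 (0.18), Setd1b (0.29), Smyd2 (-0.19), Atrx (0.25), Ncor1 (0.29), Gatad2b (0.39) and H1f0 (-0.22), none of which passed.

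Between the wild types of the lines, 100 of the 167 were higher in the exon 7 line and 33 lower, with a median difference of 0.54. Set against genes of their own length, 93 lay above the median, and the median excess was 0.06. In knockouts 93 were higher and 35 lower, beside the 31.2% of all genes called higher and 29.9% called lower. These genes share the length trend with the members, and the counts per list follow below for wild types, each read against the 33.7% of genes called higher and the 32.7% called lower.

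Of the other Chd remodellers 6 of 8 were higher and 0 lower, among them Chd9 (1.74), Chd6 (1.59), Chd1 (1.17) and Chd4 (0.85), with a median excess over like length of 0.08. Of the other BAF subunits 13 of 28 were higher and 8 lower, with a median excess of 0.026. Pbrm1 (1.89), Bcl11b (1.35) and Arid1a (1.35) were higher in the exon 7 line and Bcl7c (-1.41) was lower. Of the Kmt2 methyltransferases and their partners 11 of 19 were higher and 3 lower, with Kmt2a at 2.35, Kmt2e at 1.71, the demethylase Kdm6a at 1.42 and the small shared subunit Dpy30 at -1.05, and a median excess of -0.0070. Of the other SET domain genes 3 of 8 were higher, Nsd1 (1.37), Nsd3 (1.32) and Nsd2 (1.22), and 2 lower, with Smyd2 at -1.30 and a median excess of -0.023.

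Of the HP1 proteins and partners of ADNP and POGZ 7 of 12 were higher and 3 lower, with a median excess of 0.017. Atrx, a remodeller of silent chromatin, was at 2.67, Cbx5, which encodes an HP1 protein, at 1.33, Setdb1 at 0.72 and the corepressor gene Trim28 at -1.23. The Dyrk and Hipk kinases with the targets and partners of DYRK1A had 10 of 14 higher and 2 lower, with a median excess over like length of 0.40. Hipk2 was at 3.15, Dyrk2 at 2.45, Hipk1 at 1.66 and Hipk3 at 1.41. Of the NCoR and HDAC3 complex, the partners of SETD5, 7 of 13 were higher and 3 lower, with Ncor1 at 1.60, Tbl1x at 1.01 and Hdac3 at -0.82. Their median excess was -0.11, and 4 of the 13 lay above genes of like length.

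Of 50 other chromatin genes linked to autism and related disorders 42 were higher and 1 lower, with a median of 1.19 and a median excess over like length of 0.28. Nipbl, the cohesin loader, was at 1.97, Med13l at 1.89 and Tcf20 at 1.59. Of the NuRD subunits 6 of 15 were higher and 5 lower, with Gatad2b at 3.30, Mta3 at 1.61, Cdk2ap1 at -0.97 and Mbd3 at -1.21, and a median excess of 0.015. Of the polycomb PRC2 subunits 6 of 10 were higher and 3 lower, with Jarid2 at 1.37, Aebp2 at 1.10, Ezh2 at 0.61 and Phf1 at -0.86, and a median excess of 0.35. The replacement histones, whose longest transcripts had a median of 2.055 kb, had 0 of 9 higher and 6 lower. H1fx was at -2.05, H2afv at -0.95, H1f0 at -0.81 and H3f3a at -0.71. The median of the list was -0.76, and its median excess over like length was -0.31.

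**Figure D5:**
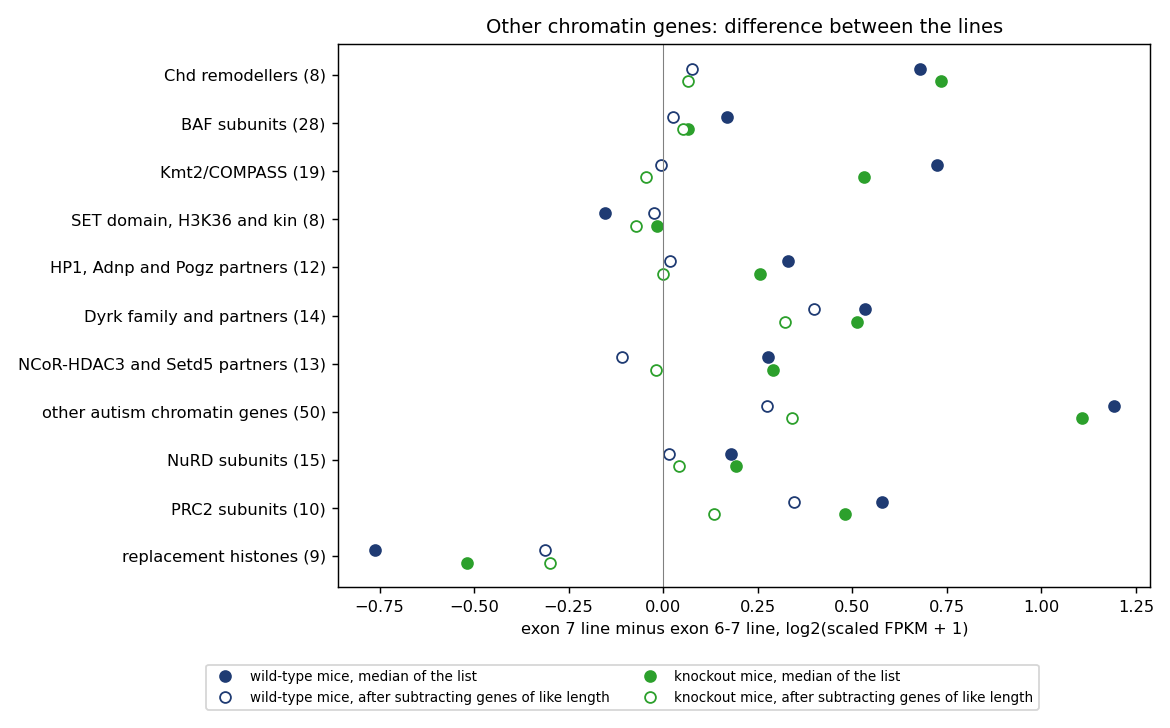
Median difference between the lines of the 11 lists of other chromatin genes, members left out, in log2(scaled FPKM + 1), with the number of genes tested in brackets. Filled points are the list's median, open points the median after subtracting genes of like length, blue for wild types and green for knockouts; the other autism chromatin genes are at 1.19 in wild types and 0.28 after subtraction, and replacement histones at -0.76 and -0.31.

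For each member the tested gene with the most similar profile over the 12 mice was found, by the root mean square distance between log2 values taken as deviations from each gene's own mean. Setd5 was nearest to Astn1 (distance 0.041) and Chd8 to Cep192 (0.048). Ash1l was nearest to the protocadherin gene Pcdh17 (0.060), Arid1b to Vash1 (0.061), Kmt2c to the huntingtin gene Htt (0.061) and Pogz to Zfp182 (0.066). Dyrk1a was nearest to Pcdh11x (0.070) and Chd2 to Wac (0.086). Adnp had no close match, with Dgkh nearest at 0.27, a gene at 0.557 scaled FPKM in exon 6-7 wild types and 13.8 in exon 7 wild types. All these profiles include the difference between the lines. Among the 50 nearest genes of a member another member appeared for 2 of 9: Arid1b for Chd2 and Setd5 for Dyrk1a. The 50 nearest genes had median transcript lengths of 5.51 to 9.90 kb, beside 3278 bases over all genes tested.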

How the data were processed

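Hippocampal poly(A) RNA of 12 mice was prepared as TruSeq libraries for an Illumina HiSeq, per the labels' protocols. CASAVA, GSNAP, Cufflinks and mm10 are named in the submitters' processing notes. The authors deposited FPKM values per gene for each mouse, under Ensembl release 74 identifiers per the file headers. The sources used here do not give the settings for counting, strand or fragments with several matches. Groups follow the genotype labels. Between any pair of libraries at most 0.00546% of the genes listed in both had exactly the same FPKM, with no tolerance.

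Genes absent from a table were set to 0. Median-of-ratios scaling used 12511 genes and gave factors of 0.919 to 1.07. The 14322 genes whose mean reached 1 scaled FPKM were tested on log2(scaled FPKM + 1), by limma-trend (limma 3.58.1, R 4.3.3). The model had a mean per group and pooled the spread of all libraries (residual degrees of freedom 8, prior degrees 3.36). Two-sided p-values were adjusted over these genes by Benjamini-Hochberg, with 0.05 as threshold. Exact permutation tests ran over 20 relabellings. Lengths, GC content and coordinates are those of GENCODE M21, and genes of like length were the 500 tested genes nearest in log length, members left out. The scripts were tested on simulated data. Python 3.11.15 and matplotlib 3.10.9 made tables and plots.

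The text names all members, Shank2, the nearest profile of each member and, of each list, the passing genes of smallest p, at most 4 (or, with none, up to 2 as not passing). A few genes chosen by this rule are left unreported. Marker lists are given as ranges, with Ttr and Mbp by name. Rps3a1, Snord15b, Gm20716, Dpm1, Dap3 and Gm26465 were chosen after their values were seen. The members and lists were chosen with earlier results of these data known. As alternatives, the pseudocount was set to 0.1 or 5, the filter was dropped or raised to 5 FPKM, and scaling was left out or replaced by quantile normalization. Library set was added as a covariate, set A was left out, length and GC trends were removed, each line was fitted alone and each mouse was left out in turn. Chosen after seeing the data, Adnp was summed with Gm20716.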

Additional observations from a re-analysis of the deposited data

How the results depend on the processing

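No paired analysis was possible because every mouse has a number of its own and the groups share none. The count of members past the threshold was 0 in both knockout comparisons and in the difference of effects under every alternative run, and in the line comparisons it was 9 under all but a fit freed of length and GC trends, which left 7. The counts of 9 and 7 include Adnp, which passed the filter only through the exon 7 mice. Leaving out 1 mouse at a time changed no call of a member.

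Genes called in all, in the exon 6-7 knockouts, went from 3 to 6 with no filter, 5 without the set A libraries and 5 with each line alone, and to between 2 and 8 with 1 mouse left out (6 without WT809, 8 without KO864, and 2 without WT865 or KO776). In the exon 7 knockouts they went from 0 to 1 with a pseudocount of 0.1, 1 with no filter and 4 without set A, and to between 0 and 4 with 1 mouse left out (4 without WT993, 2 without WT999, and 1 without WT628, KO969 or KO994). For the difference of effects they went from 2 to 1 with the higher filter, 4 with the set as a covariate and 7 without set A, and to between 2 and 5 with 1 mouse left out (5 without KO864, and 4 without WT993, KO969 or KO994). In the line comparisons 6812 to 10334 genes were called between wild types and 6070 to 9583 between knockouts.

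The signs of the small knockout differences were not stable. With length and GC trends removed, the exon 6-7 difference was -0.015 for Chd8, -0.027 for Kmt2c and -0.026 for Pogz. The exon 7 difference was then 0.0080 for Chd8, 0.031 for Arid1b, 0.0034 for Ash1l, 0.017 for Kmt2c and 0.0076 for Setd5, and the difference of effects -0.023 for Chd8 and -0.043 for Kmt2c. Without set A the exon 6-7 difference was -0.0020 for Chd8 and -0.0042 for Pogz, and the Adnp difference of effects -0.011. Adnp in the exon 6-7 line was 0.0044 with a pseudocount of 5 and 0.089 summed with Gm20716. Its difference of effects was -0.038 with a pseudocount of 0.1, and Arid1b in the exon 7 line was at 0.010 with quantile normalization. With 1 mouse left out, the exon 6-7 difference ran from -0.018 to 0.148 for Chd8, -0.051 to 0.068 for Chd2, -0.013 to 0.197 for Kmt2c, -0.243 to 0.273 for Adnp and -0.0093 to 0.092 for Pogz. The exon 7 difference ran from -0.126 to 0.104 for Arid1b and -0.103 to 0.031 for Dyrk1a, and the Adnp difference of effects from -0.038 to 0.478. Between the lines, Chd8 was at -0.21 in wild types and -0.19 in knockouts with the trends removed, and Kmt2c at 0.058 and 0.10. The cause was not tested. FPKM as deposited shifted the median of all genes between the lines to -0.13 in both genotypes. Depth is unknown, and with 3 mice a group the 95% interval of Adnp within a line reached 0.69 in size.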
